A study of Mus musculus with 12 samples.

Results

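Calprotectin and the genes that mark neutrophils were followed in the terminal ileum of mice exposed to a macrolide antibiotic early in life. The 7 genes were the calprotectin subunits S100a8 and S100a9, the granule proteins Camp and Ltf, and the surface receptors Csf3r, Cxcr2 and Trem1. They were chosen by name for their link to neutrophils, as 7 of the 556 genes with a value on the NanoString nCounter panel for mouse immunology, in which reporter probes bound to RNA are counted one by one. There were 4 groups of 3 mice. SPF control mice were C57BL/6 mice with a specific-pathogen-free microbiota and no antibiotic, and SPF PAT mice had the same background but received pulsed antibiotic treatment (PAT) with tylosin as nursing pups through the drinking water of their dams. GF control and GF PAT mice were germ-free C57BL/6 mice without and with the same tylosin exposure. All 12 mice were male and were sampled at week 7, well after the exposure had ended, and none carried a labelled genetic change. The labels name each mouse by a number but give no litter, cage or batch, so that the p-values measure only the spread between these mice.

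Neutrophils are short-lived phagocytes that leave the bone marrow, circulate and enter tissue along chemokine gradients. S100A8 and S100A9 pair to form calprotectin, which makes up much of the neutrophil cytosol, binds zinc and manganese and so withholds them from microbes, and is measured in stool as a marker of gut inflammation. Both subunits are also made by monocytes and by stimulated epithelium, so their RNA in a piece of ileum need not come from neutrophils.

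S100a8 and S100a9 are neighbours on chromosome 3, on opposite strands, and are shown here because the results turn on them. The 250 bases before each start, read 5′ to 3′ on the gene's own strand, are from RefSeq (GRCm38.p6), with S100a8 at chr3:90668821-90669070 on the plus strand and S100a9 at chr3:90695722-90695971 on the minus strand. Capitals mark matches to the letters TTNNGNAA, searched on both strands as the simple form of the motif of C/EBP factors, which drive myeloid genes.
S100a8: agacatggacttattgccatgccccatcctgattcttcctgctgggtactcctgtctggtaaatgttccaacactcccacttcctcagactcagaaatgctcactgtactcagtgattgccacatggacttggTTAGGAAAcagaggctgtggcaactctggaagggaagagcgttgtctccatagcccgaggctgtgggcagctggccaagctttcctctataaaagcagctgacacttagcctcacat
S100a9: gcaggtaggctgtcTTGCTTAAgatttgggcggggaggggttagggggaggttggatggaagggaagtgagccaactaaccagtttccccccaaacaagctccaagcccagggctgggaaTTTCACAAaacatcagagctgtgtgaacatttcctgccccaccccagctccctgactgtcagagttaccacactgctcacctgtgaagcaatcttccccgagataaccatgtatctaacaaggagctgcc
S100a8 had 1 match, whose start lies 117 bases before the gene's start, and S100a9 had 2, at 236 and 130 bases. The letters occurred in 36.8% of 32851 promoter windows of this length and in those of 4 of the 7 genes (S100a8, S100a9, Ltf and Trem1), so that a match is a description and no evidence of binding.

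Total counts were 600308 to 923395 per mouse, and the 3 SPF control mice had the highest totals, 806043 to 923395. All 7 genes were low on this panel, with mean normalized counts under 20 over the 12 mice, a level that 111 of the 556 genes fell below. Within groups, mice of the same kind had an SD of 0.36 (Csf3r) to 1.09 (Cxcr2) on the log2 scale for the 7 genes, against 0.30 for the median gene. Intervals around single counts are exact Poisson 95% intervals and cover counting error only. The negative control probes held no value, so that no background limit could be set. How much of the counts of 0 to 12, and so of the folds against the lower groups, is background was not tested.

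**Figure D1:**
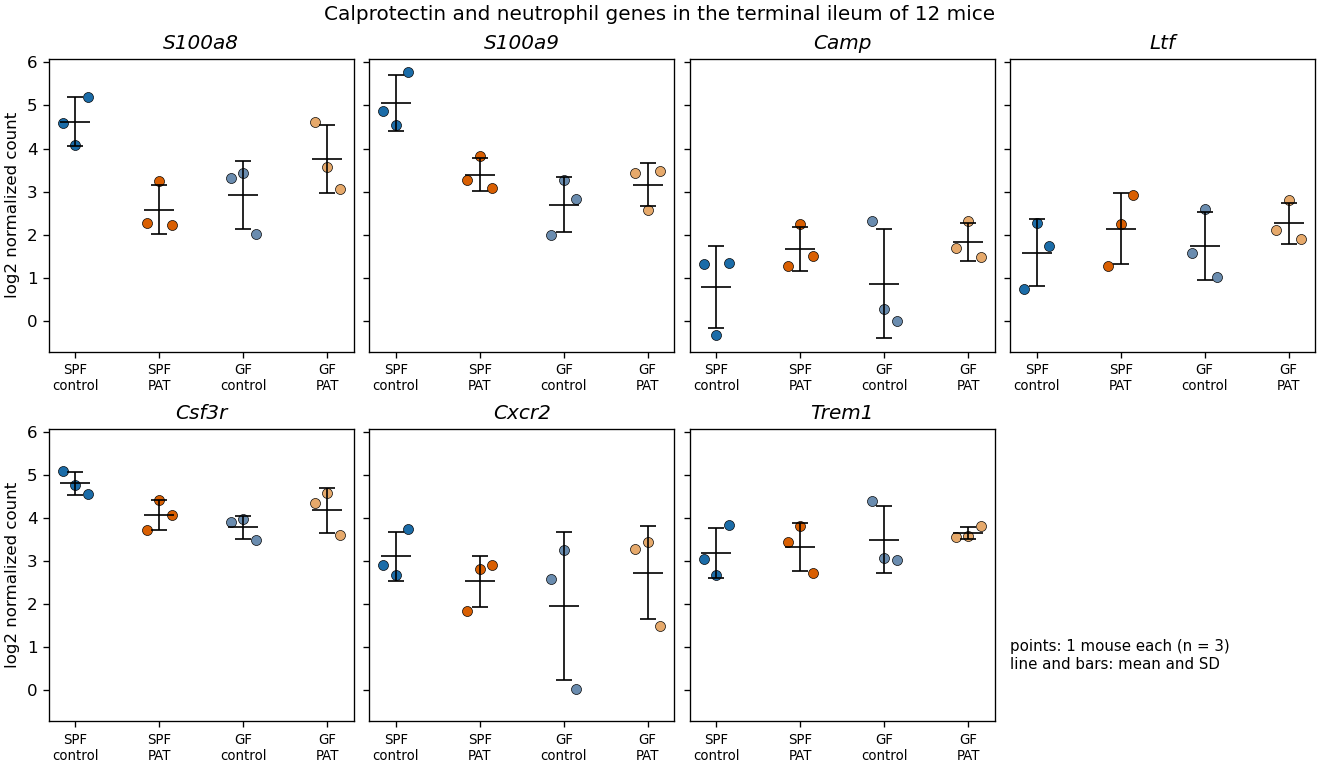
Log2 normalized count of each gene (y axis) in the 4 groups (x axis), with 1 point per mouse and the mean and SD of 3 mice as a line with bars. S100a8, S100a9 and Csf3r were highest in SPF control mice, whereas Camp, Ltf, Cxcr2 and Trem1 overlapped between the groups of each comparison tested.

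Calprotectin RNA was higher in SPF control mice than in GF control mice and lower in SPF PAT mice than in SPF control mice. S100a9 differed 5.13-fold between the control groups and S100a8 3.24-fold, and in SPF mice PAT went with a level 4.12-fold lower for S100a8 and 3.17-fold lower for S100a9. In GF mice neither subunit passed the test after PAT. The difference between the PAT effects in SPF and GF mice passed the test for both.

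S100a8 encodes the smaller calprotectin subunit. Its counts were 29, 21 and 44 in SPF control mice 8, 7 and 2, and 4, 8 and 5 in SPF PAT mice 27, 26 and 21. In the germ-free mice the counts were 10, 9 and 4 in GF control mice 39, 38 and 37 and 23, 12 and 9 in GF PAT mice 43, 42 and 41. Every SPF control mouse was above every SPF PAT and GF control mouse, while GF PAT mouse 43 lay within the SPF control range on the normalized scale. The lowest SPF control count, 21, had an interval of 13.0 to 32.1, and the highest SPF PAT count, 8, one of 3.45 to 15.8. These intervals overlapped, which is not a test of a difference between the counts. They also leave out the size factors of these mice, 1.25 and 0.847, which gave normalized counts of 16.8 and 9.44. Group means of log2 normalized counts ran from 4.62 ± 0.57 (SD, n = 3) in SPF control through 3.76 ± 0.79 in GF PAT and 2.93 ± 0.78 in GF control to 2.58 ± 0.57 in SPF PAT. Each of these neighbours in the order overlapped.

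S100a9 encodes the larger subunit. Its counts were 35, 29 and 65 in SPF control mice 8, 7 and 2, and 8, 12 and 9 in SPF PAT mice 27, 26 and 21. They were 4, 8 and 7 in GF control mice 39, 38 and 37 and 10, 6 and 12 in GF PAT mice 43, 42 and 41. All 3 SPF control mice were above the other 9 mice. Mean log2 normalized counts were 5.06 ± 0.64 (SD, n = 3) in SPF control, 3.39 ± 0.39 in SPF PAT, 3.16 ± 0.51 in GF PAT and 2.70 ± 0.65 in GF control, and the last 3 groups overlapped.

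The first comparison asked what an undisturbed microbiota went with at week 7. S100a9 was higher in SPF control than in GF control mice by 2.36 (SE 0.42, 95% interval 1.42 to 3.30) on the log2 scale, with an adjusted p of 0.00212 in limma. S100a8 was higher by 1.70 (SE 0.52, interval 0.54 to 2.85, adjusted p = 0.0243). Of the 7 genes 3 passed in this direction, S100a8, S100a9 and Csf3r, where 19.4% of all genes passed. The same 3 did not overlap between the groups, where 25.4% of all genes did not overlap with SPF control mice the higher. The median difference of the 7 genes was 1.02, against 0.08 for all genes, but the 7 were split, with 4 differences positive and 3 negative. The S100a8 call was lost without SPF control mouse 2 or GF control mouse 37 and under median centring or quantile normalization, and the S100a9 call held under each of these. Under Tukey HSD the S100a8 call was lost with Benjamini-Hochberg and Benjamini-Yekutieli adjustment, and the S100a9 call with the latter only.

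The second comparison asked whether the early course still went with a difference at week 7 in colonized mice. S100a8 fell by 2.04 (SE 0.52, interval -3.20 to -0.89, adjusted p = 0.0190 in limma) in SPF PAT mice, and S100a9 fell by 1.67 (SE 0.42, interval -2.61 to -0.73, adjusted p = 0.0190). These were 2 of the 7 genes, where 12.2% of all genes passed in this direction. S100a8, S100a9 and Csf3r did not overlap between the groups, where 18.2% of all genes did not overlap with SPF PAT mice the lower. The median difference of the 7 genes was -0.58, against -0.02 for all genes, but here too the 7 were split, with 4 differences negative and 3 positive. Both calls were lost without SPF PAT mouse 27 (adjusted p 0.0701 for S100a8 and 0.0632 for S100a9), without SPF control mouse 2 (0.0758 and 0.0729), and under median centring (0.0595 and 0.0558) or quantile normalization (0.0674 and 0.136). Both calls were also lost under Tukey HSD, the test in the methods of the study, with Benjamini-Hochberg or Benjamini-Yekutieli adjustment. When all counts were thinned to the lowest total, an alternative added after seeing the data, the differences were -1.82 for S100a8 and -1.71 for S100a9 and both passed. As the ileum was measured whole, fewer cells with calprotectin and less calprotectin RNA per cell cannot be told apart.

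The third comparison asked whether tylosin went with a difference where there was no microbiota. In GF PAT against GF control mice none of the 7 genes passed, where 0% of all 556 genes passed in limma and 28 genes, none of them among the 7, had an unadjusted p under 0.05. S100a8 differed by 0.83 (SE 0.52, interval -0.33 to 1.99, adjusted p = 0.693) and S100a9 by 0.46 (SE 0.42, interval -0.48 to 1.40, adjusted p = 0.696), both toward higher values in GF PAT mice. The fitted differences of all 7 genes were positive, from 0.15 for Trem1 to 0.97 for Camp, with a median of 0.53 against -0.0043 for all genes, and every interval included 0. That of Trem1 turned negative under median centring and quantile normalization.

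**Figure D2:**
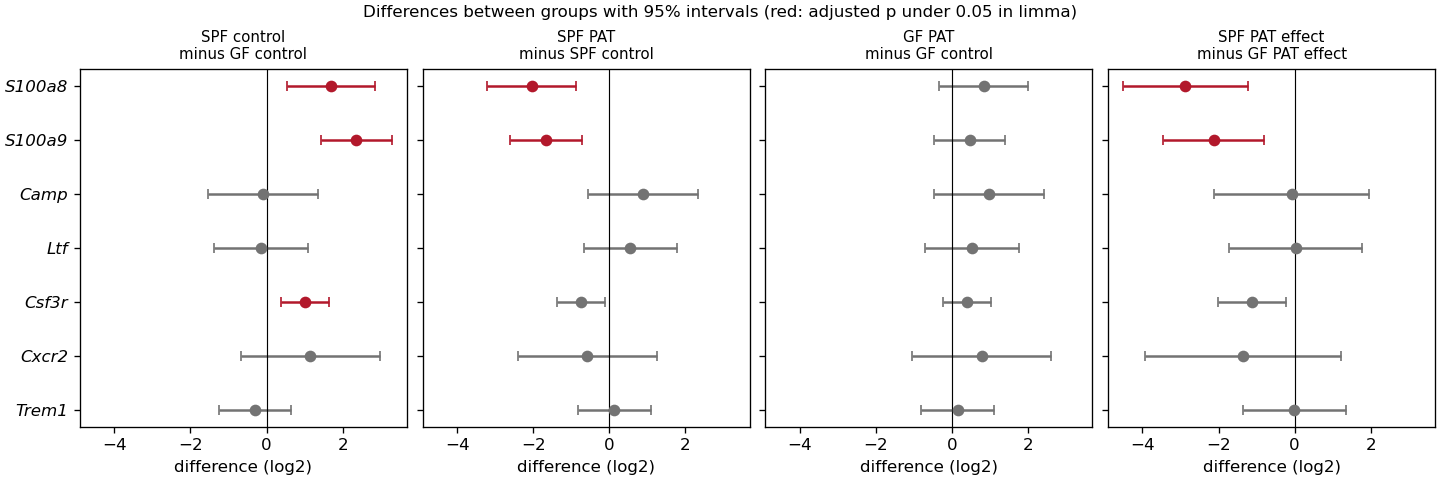
Differences in log2 normalized count (x axis, points with 95% intervals) of the 7 genes in 3 comparisons of groups and in the difference between the PAT effects of SPF and GF mice. Red points passed an adjusted p of 0.05 in limma, and S100a8 and S100a9 are red in each panel except GF PAT minus GF control.

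The PAT effect in SPF mice minus that in GF mice was -2.87 for S100a8 (SE 0.73, interval -4.51 to -1.24, adjusted p = 0.0294 in limma) and -2.13 for S100a9 (SE 0.59, interval -3.46 to -0.80, adjusted p = 0.0391). Of the 7 genes these 2 passed in the negative direction, where 7.19% of all genes did. The S100a8 call was lost without SPF PAT mouse 27, SPF control mouse 2 or GF PAT mouse 42 and under median centring or quantile normalization. The S100a9 call was lost under the same scalings, after thinning, and without any 1 of 6 mice, which were mice 27 and 26 of SPF PAT, mouse 2 of SPF control, mice 43 and 41 of GF PAT and mouse 39 of GF control.

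Both PAT groups were also set against each other. None of the 7 genes passed between SPF PAT and GF PAT mice, where 1.44% of all genes passed in either direction. S100a8 differed by -1.18, toward lower values in SPF PAT mice (interval -2.34 to -0.02), with an unadjusted p of 0.0470 and an adjusted p of 0.482 in limma, and S100a9 differed by 0.23 (interval -0.71 to 1.17, adjusted p = 0.929). Over the 4 groups, the F-test in limma passed for S100a9 (adjusted p = 0.00993) and S100a8 (0.04), 2 of the 7 genes, where 33.1% of all genes passed.

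**Figure D3:**
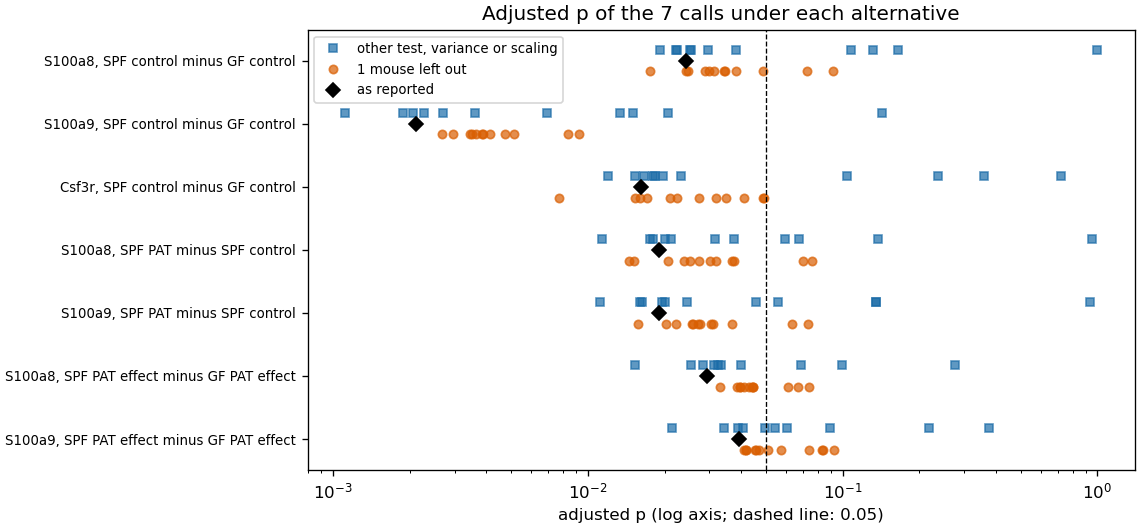
Adjusted p (x axis, log scale) of the 7 calls made for S100a8, S100a9 and Csf3r, as reported (black diamonds), under other tests, variance models or scalings (blue squares) and with 1 mouse left out (orange circles). Squares or circles lie right of the dashed line at 0.05 for each call, with 1 of 23 for S100a9 in SPF control against GF control mice and 11 of 22 for S100a9 in the difference between PAT effects.

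Csf3r encodes the receptor of the granulocyte colony-stimulating factor, which sustains neutrophil production and survival. Its counts were 41, 34 and 28 in SPF control mice 8, 7 and 2, 11, 18 and 18 in SPF PAT mice 27, 26 and 21, 15, 13 and 11 in GF control mice 39, 38 and 37, and 19, 24 and 13 in GF PAT mice 43, 42 and 41. SPF control mice were above both SPF PAT and GF control mice on the normalized scale, and GF PAT mouse 42 was just above the lowest SPF control mouse. Mean log2 normalized counts were 4.80 ± 0.27 (SD, n = 3) in SPF control, 4.17 ± 0.51 in GF PAT, 4.07 ± 0.34 in SPF PAT and 3.78 ± 0.26 in GF control. Csf3r was higher in SPF control than in GF control mice by 1.02 (SE 0.28, interval 0.39 to 1.65, adjusted p = 0.0162 in limma), a call that was lost under median centring (adjusted p = 0.236) and quantile normalization (0.359). That call was also lost under Tukey HSD with Benjamini-Hochberg or Benjamini-Yekutieli adjustment. In SPF PAT against SPF control mice its difference was -0.73 (SE 0.28, interval -1.36 to -0.10) and did not pass (adjusted p = 0.0786), nor did its difference between PAT effects of -1.12 (adjusted p = 0.0708). It passed in both without GF PAT mouse 41, and the difference between PAT effects also passed when values were scaled to the total count.

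Cxcr2 encodes the receptor through which neutrophils follow CXC chemokines into tissue. Its counts were 9, 8 and 16 in SPF control mice 8, 7 and 2, 3, 6 and 8 in SPF PAT mice 27, 26 and 21, 6, 8 and 1 in GF control mice 39, 38 and 37, and 9, 11 and 3 in GF PAT mice 43, 42 and 41. The groups overlapped, with GF control mouse 37 and GF PAT mouse 41 the lowest. The differences had the signs of those of S100a8 in the 3 comparisons of groups, 1.15 between the controls (interval -0.67 to 2.98, adjusted p = 0.268 in limma), -0.58 after PAT in SPF mice (interval -2.41 to 1.24, adjusted p = 0.588) and 0.78 after PAT in GF mice (adjusted p = 0.707), and none passed. These intervals include differences as large as those of calprotectin.

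Trem1 encodes a receptor that amplifies inflammatory signals in neutrophils and monocytes. Its counts were 10, 8 and 17 in SPF control mice 8, 7 and 2, 9, 12 and 7 in SPF PAT mice 27, 26 and 21, 21, 7 and 8 in GF control mice 39, 38 and 37, and 11, 12 and 15 in GF PAT mice 43, 42 and 41. The highest count was in a GF control mouse, all groups overlapped, and the 3 GF PAT mice lay closest together. The differences were -0.31 between the controls (interval -1.26 to 0.65), 0.14 after PAT in SPF mice (interval -0.82 to 1.09) and 0.15 after PAT in GF mice (interval -0.81 to 1.11), and none passed in limma (adjusted p = 0.577, 0.809 and 0.919).

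Camp encodes cathelicidin and Ltf lactoferrin, antimicrobial proteins that neutrophils store in their specific granules as they mature in the marrow. Camp was counted 3, 1 and 3 times in SPF control mice 8, 7 and 2, 2, 4 and 3 times in SPF PAT mice 27, 26 and 21, 5, 1 and 0 times in GF control mice 39, 38 and 37, and 3, 5 and 3 times in GF PAT mice 43, 42 and 41. Ltf was counted 2, 6 and 4 times in the SPF control mice, 2, 4 and 8 times in the SPF PAT mice, 3, 5 and 2 times in the GF control mice and 4, 7 and 4 times in the GF PAT mice, in the same order. All groups overlapped for Ltf, and Camp overlapped in each comparison tested. In SPF PAT against SPF control mice the differences were 0.89 for Camp (interval -0.55 to 2.33, adjusted p = 0.304 in limma) and 0.56 for Ltf (interval -0.67 to 1.79, adjusted p = 0.441), opposite in sign to those of calprotectin. Between the controls they were -0.09 and -0.15, and a difference of this size was not detectable at these counts.

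Genes that act on or with neutrophils were read from lists around the 7 genes. Of 9 cytokines that induce neutrophil chemoattractants or calprotectin, 3 were higher in SPF control than in GF control mice, with differences of 2.34 for Il22 (adjusted p = 0.00186 in limma), 1.68 for Il17a (0.00531) and 0.86 for Il1b (0.0212), a share of 33.3% where 19.4% of all genes were higher. Il17a, the signature cytokine of type 17 T cells, had counts of 22 to 26 in SPF control mice and 7 in each SPF PAT mouse, and fell by 1.38 (adjusted p = 0.0217). Il22, which induces antimicrobial genes in the epithelium, had counts of 9 to 13 and 2 to 3 in these groups and fell by 1.87 (adjusted p = 0.0102). These 2 of 9 were 22.2%, where 12.2% of all genes fell. The other 7 cytokines did not pass in that comparison, and none of the 9 passed after PAT in GF mice. The PAT effects in SPF and GF mice differed for Il17a (-1.92, adjusted p = 0.0322). The median difference of the 9 cytokines was 0.62 between the controls (0.08 for all genes) and -0.66 after PAT in SPF mice (-0.02 for all genes), and under median centring it was 0.18 and -0.31. Under median centring and under quantile normalization Il1b did not pass between the controls. Csf2, a growth factor of myeloid cells, passed there under both as lower in SPF control mice. Il17a passed under neither after PAT in SPF mice or in the difference between PAT effects, whereas the fall of Il22 passed under both. The fall of Il22 was lost where 1 was added before log2, with or without scaling to the total count. Under Tukey HSD the falls of Il22 and Il17a were lost with Benjamini-Hochberg and with Benjamini-Yekutieli adjustment. The call of Il1b between the controls was lost there too. The fall of Il17a was also lost without any 1 of SPF PAT mice 27 and 26 and SPF control mice 7 and 2, its difference between PAT effects without any 1 of 8 mice, and the rise of Il1b in SPF control mice without SPF control mouse 2 or GF control mouse 37.

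Of 8 listed ligands of Cxcr2 and Csf3r, 4 had values, and 1 passed. Cxcl15, a chemokine of epithelial cells, was lower in SPF control than in GF control mice, with a difference of -1.89 (adjusted p = 0.0190 in limma), and rose by 1.76 in SPF PAT mice (adjusted p = 0.0402), opposite to calprotectin, with counts of only 1 to 6 in SPF control and 6 to 7 in SPF PAT mice. That rise was lost in 12 of 23 alternatives, 8 of which left out 1 mouse. The difference between the controls was lost in 4 of 23. These were both adjustments of Tukey HSD, a fit of only the groups compared and the omission of GF control mouse 37. Of the 3 ligands that did not pass, Cxcl1 had the signs of calprotectin between the controls and after PAT in SPF mice. These differences were 1.03 (adjusted p = 0.265 in limma) and -1.24 (0.221). Its groups did not overlap in either, where 25.4% and 18.2% of all genes did not. Its counts were 18 to 27 in SPF control and 4 to 10 in SPF PAT mice. Cxcl3 (-0.81 and 0.95) and Ppbp (-0.49 and 0.91) had the signs of Cxcl15 in these comparisons. Of 7 measured receptors and signalling partners of calprotectin and Trem1, Card9, an adaptor of fungal recognition, was higher in SPF control than in GF control mice (0.88, adjusted p = 0.0152 in limma) and Myd88, the adaptor of Toll-like receptors, was lower (-0.52, adjusted p = 0.0107). The share higher, 14.3%, was below the 19.4% of all genes. None of the 7 passed after PAT in SPF mice, and the PAT effects in SPF and GF mice differed for Myd88 (0.61, adjusted p = 0.0498). The call of Card9 was lost under median centring and quantile normalization and without GF control mouse 39 or 38. Tukey HSD with Benjamini-Hochberg or Benjamini-Yekutieli adjustment lost it too. The last call of Myd88 was lost in 13 of 23 alternatives, 9 of which left out 1 mouse.

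Of 26 further genes that neutrophils share with other myeloid cells, 17 had values. Between the controls 4 of the 17 were higher in SPF mice, namely the integrin chains Itgam (1.26) and Itgb2 (1.03), the oxidase subunit Cybb (0.83) and the receptor Tlr2 (0.78), and after PAT in SPF mice Itgam (-0.90, adjusted p = 0.0440 in limma) and Tlr2 (-0.83, adjusted p = 0.0402) fell. These shares, 23.5% and 11.8%, were close to those of all genes, 19.4% and 12.2%. The median difference of the 17 genes was 0.64 between the controls and -0.36 after PAT, against 0.08 and -0.02 for all genes, and it was 0.20 and -0.0033 under median centring. Both falls were lost under median centring and quantile normalization and without any 1 of 9 mice for Itgam and of 8 mice for Tlr2. Between the controls Cybb and Tlr2 lost their calls without any 1 of 4 mice each, while leaving out 1 mouse ended no call of Itgam or Itgb2. Under median centring, of these 4 only Itgb2 passed, and Tlr2 was also lost under quantile normalization. None of the 17 passed after PAT in GF mice or in the difference between PAT effects. The neutrophil genes Ly6g, Mpo, Elane, Lcn2 and Fpr1 were among those of the 26 that had no value under these symbols. The label of the 7 genes as neutrophil genes thus rests on their names and not on a further marker.

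Epithelial markers were present as the tissue label implies, with 5 measured genes that summed to 103217 to 193770 normalized counts per mouse, and no measured marker was at 0 in every mouse. Some of the 5 epithelial genes also passed. Between the controls Pigr, the carrier of secretory antibodies, was higher in SPF mice (0.77), and Btnl1 (-0.97) and Ctnnb1 (-0.80) were lower. The share higher, 20%, was close to the 19.4% of all genes. After PAT in SPF mice the oxidase Nox1 fell (-1.73) while Btnl1 (0.78) and Ctnnb1 (0.54) rose. The share that fell was 20%, where 12.2% of all genes fell. Under median centring Pigr, Nox1 and the rise of Ctnnb1 were lost, Pigr was also lost without any 1 of 5 mice and the rise of Ctnnb1 without any 1 of 9. Under Tukey HSD with Benjamini-Hochberg adjustment Pigr, Nox1 and the rises of Btnl1 and Ctnnb1 were lost. Of 4 mast cell and eosinophil markers, Kit was lower in SPF control than in GF control mice (-0.80), rose after PAT in SPF mice (0.70) and differed between PAT effects (1.03), the opposite of calprotectin, and Il1rl1 was lower in SPF control than in GF control mice (-1.34). Of 2 endothelial markers, Cdh5 was lower in the same comparison (-0.77). T cell markers moved with calprotectin. Of 7 T cell markers, 6 were higher in SPF control than in GF control mice and 5 fell in SPF PAT mice, 85.7% and 71.4%, where 19.4% and 12.2% of all genes did. The falls passed for 3 under median centring, for 2 when scaled to the total count and for 1, Cd8a, under Tukey HSD with Benjamini-Hochberg. Those of Cd247, Cd3d, Cd3e and Zap70 were lost without any 1 of 10, 9, 5 and 3 mice, and that of Cd8a held whichever mouse was left out. In the difference between PAT effects Cd247, Cd3d, Cd8a and Zap70 passed in the negative direction. This was 57.1% of the 7, where 7.19% of all genes did. The calls of Cd247, Cd3d and Zap70 in it were lost without any 1 of 9, 8 and 7 mice. Summed over the 7 T cell markers, normalized counts were 1232 to 1778 in SPF control, 413 to 1088 in SPF PAT, 383 to 762 in GF control and 495 to 875 in GF PAT mice. Of 7 measured monocyte and macrophage markers, Ccr2 was higher (0.60) and Cd163 lower (-1.02) in SPF control than in GF control mice and none passed after PAT in SPF mice. Ccr2 made a share of 14.3%, where 19.4% of all genes were higher. The Ccr2 call was lost in 9 of 24 alternatives, median centring, quantile normalization and the omission of any 1 of 4 mice among them. That of Cd163 was lost in 6 of 24, 3 of which left out 1 mouse. Sums of the monocyte and macrophage markers overlapped, at 1341 to 1862 in SPF control, 1231 to 1625 in SPF PAT, 1102 to 1559 in GF control and 1183 to 1434 in GF PAT mice. The 6 B cell markers did not pass in any comparison but their sums ranged from 111 to 5462 between mice. No share of all genes was computed for calls lower in SPF control mice, higher after PAT or positive between PAT effects. The same limit holds for the calls of Cxcl15 and Myd88. The part of these cell types in the calprotectin differences was not tested.

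**Figure D4:**
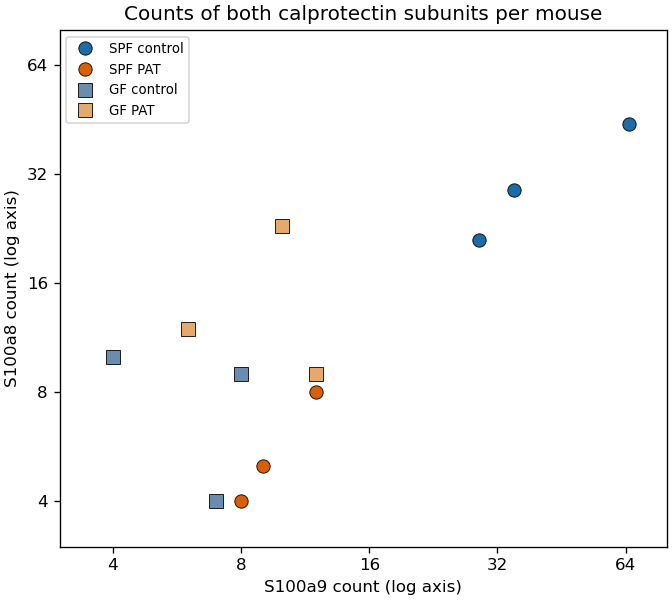
Recovered counts of S100a9 (x axis) and S100a8 (y axis) in each of the 12 mice, both on log axes, with circles for SPF and squares for GF mice. The SPF control mice, at 29 to 65 S100a9 counts and 21 to 44 S100a8 counts, stand at the upper right, and the SPF PAT mice lie at 8 to 12 and 4 to 8.

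The patterns over the 12 mice are given as Pearson's r of log2 values, without a test, because the mice share 4 group means and the values share the scaling of each mouse. S100a9 was most like Saa3 (0.93), an acute-phase protein of the epithelium and macrophages, followed by the granzymes Gzma and Gzmb (both 0.89), Tmem173 (0.89), the sensor of cyclic dinucleotides, and the chemokine Ccl5 (0.87). After group means were removed these correlations were 0.66, 0.40, 0.31, 0.43 and 0.17. S100a8 was most like the scavenger receptor Msr1 (0.85), followed by the defensin Defb1 (0.81), Cxcl10 (0.80), Ccr2 (0.77) and Csf3r (0.75), and these were 0.78, 0.52, 0.21, 0.44 and 0.54 after group means were removed. The nearest gene was Socs3 for Csf3r (0.83), Pla2g2e for Cxcr2 (0.82), Tgfb2 for Trem1 (0.72), Trem1 for Camp (0.72) and Il11ra1 for Ltf (0.68). Among the 21 pairs of the 7 genes, 15 were positive and r ran from -0.27 to 0.75, with 0.67 for S100a8 and S100a9, or 0.38 after group means were removed.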

How the data were processed

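Total RNA of the terminal ileum of 12 mice was measured with reporter probes. The authors normalized counts with DESeq2 (version not given in the sources used here), took log2 and deposited 1 value for each of 556 genes and each mouse, so that the unit is a log2 normalized count. A further 28 entries (14 reference genes, 8 negative and 6 positive control probes) held no value, so no background limit was set. With 1 size factor per mouse (0.830 to 1.25), every value gave a whole count within 0.01, and a count of 0 was written as 0. Values of 1 count ran from -0.32 to 0.27, so that a count of 0 could stand above a count of 1. Whether other corrections came first is not given in the sources used here.

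Groups were compared with limma 3.58.1 in R 4.3.3, with 1 mean per group and all 12 mice, and p-values were adjusted by Benjamini-Hochberg over the 556 genes per comparison (threshold 0.05). The fits were tested on simulated data. No filter on low values was used, so all 7 genes were tested. The 7 genes were named in every comparison, and genes of the surrounding lists where they passed. The ligands Cxcl1, Cxcl3 and Ppbp were named without passing. For likeness the 5 nearest genes of S100a8 and S100a9 were named and the nearest of the others. The members and lists were chosen with earlier results of these data known. Symbols of all 7 genes matched RefSeq. Alternatives were voom on recovered counts, Tukey HSD under Benjamini-Hochberg or Benjamini-Yekutieli adjustment, other variance models and scalings, a minimum mean of 20, leaving out each mouse and, added after seeing the data, thinning.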

Additional observations from a re-analysis of the deposited data

Results flagged for a closer look

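For S100a8, PAT went with unlike changes in SPF and in GF mice, which differed by -2.87 on the log2 scale (adjusted p = 0.0294 in limma's test of the difference). For S100a9 they differed by -2.13 (adjusted p = 0.0391). The call was lost in 6 of 22 alternatives for S100a8 and in 11 of 22 for S100a9, median centring and quantile normalization among them for both.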

How the results depend on the processing

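The 7 calls kept their direction under every alternative run. Of 798 values of the 7 genes under alternatives, 698 kept their direction and side of the threshold, 40 lost a call, 3 gained one and 57 changed sign, none of them a call. Medians of the mice differed by 0.44 between the controls, -0.36 for PAT in SPF mice and 0.19 for PAT in GF mice. They differed by -0.10 between the PAT groups and by -0.54 for the difference between PAT effects. Median centring subtracts these amounts from the difference of every gene. In the main fit the median difference over all genes was 0.08, -0.02, -0.0043, -0.03 and 0.0052 in this order. The size factors equalled the medians of ratios over the genes counted in every mouse, which hold this median near 0. It therefore cannot decide what the differences of mouse medians stand for, and that was not tested. Between the controls, 3 genes passed, but 1 under Tukey HSD with Benjamini-Hochberg, median centring and quantile normalization, 0 under Benjamini-Yekutieli, and 2 to 3 when 1 mouse was left out. After PAT in SPF mice, 2 passed, but 0 under these 4 alternatives and 0 to 3 when 1 mouse was left out. For the difference between PAT effects, 2 passed, but 1 under Tukey HSD with Benjamini-Hochberg and after thinning (added after seeing the data), 0 under Benjamini-Yekutieli, median centring and quantile normalization, and 0 to 2 when 1 mouse was left out. The difference in the S100a8 to S100a9 ratio was -1.28 to -0.85 when 1 mouse was left out. A minimum mean normalized count of 20 left none of the 7 genes, so it gave no value. No paired analysis was possible because the labels give the mice no shared numbers.

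Signs of differences that did not pass changed as follows. Between the controls, Camp was 0.33 under voom, 0.24 under total scaling and 0.25 with log2 plus 1, and Ltf 0.0017 after thinning. Those settings for Camp place a count of 0 below a count of 1. In the main fit GF control mouse 37, with a Camp count of 0, stood at 0. SPF control mouse 7, with a count of 1, stood lower, at -0.32. Trem1 was -0.085 after thinning for PAT in SPF mice, and -0.038 under median centring and -0.12 under quantile normalization for PAT in GF mice. In the difference between PAT effects, Camp was 0.47 under centring and 0.26 under quantile, Ltf -0.057 under total scaling and -0.026 after thinning, and Trem1 0.0027 under voom, 0.53 under centring and 0.56 under quantile. Between the PAT groups, quantile normalization gave 0.048 for Camp, 0.054 for Ltf, 0.18 for Csf3r and 0.0081 for Cxcr2, and centring 0.0003 for Csf3r. Leaving out 1 mouse gave, between the controls, -0.52 to 0.64 for Camp, -0.50 to 0.28 for Ltf and -0.63 to 0.14 for Trem1; for PAT in SPF mice -0.12 to 0.46 for Trem1; for PAT in GF mice -0.19 to 1.43 for Cxcr2 and -0.085 to 0.60 for Trem1. For the difference between PAT effects it gave -0.80 to 0.36 for Camp, -0.41 to 0.46 for Ltf and -0.46 to 0.31 for Trem1, and between the PAT groups -0.063 to 0.39 for S100a9, -0.45 to 0.082 for Camp, -0.51 to 0.31 for Ltf, -0.39 to 0.10 for Csf3r and -0.83 to 0.15 for Cxcr2. The cause was not tested. Counts under 10 in many mice limit what these genes can show.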

Other observations

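The count of S100a8 relative to that of S100a9 in the same mouse is given as a description, since both the ratio and the split into SPF and GF mice were chosen after the values were seen. The log2 ratio was -0.27, -0.47 and -0.56 in SPF control mice 8, 7 and 2 and -1.0, -0.58 and -0.85 in SPF PAT mice 27, 26 and 21. It was 1.32, 0.17 and -0.81 in GF control mice 39, 38 and 37 and 1.20, 1.0 and -0.42 in GF PAT mice 43, 42 and 41. All 6 SPF mice were below 0, and the GF mice spread on both sides. The mean was -0.62 ± 0.26 (SD, n = 6) in SPF and 0.41 ± 0.90 (n = 6) in GF mice, which differ by -1.03. As each probe has its own efficiency, the value of the ratio in 1 mouse has no meaning as a ratio of subunits, and the difference between groups rests on GF counts of 4 to 23.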
